A study of Homo sapiens with 6 samples.

Results

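The 45 genes described here encode the machinery that copies DNA and the enzymes that supply its building blocks. They were chosen by gene symbol for what their products do, with earlier results of these data known. They were sorted into 7 roles: licensing of origins, activation of the helicase, the sliding clamp and its loader, polymerases and primase, nucleotide supply, Okazaki joining with single-stranded DNA binding, and chromatin assembly with histone mRNA. All 45 were found once among the 58825 genes of the tables, and all 45 were among the 20295 genes that could be tested. The question was how their transcripts differed when PRMT5, a type II protein arginine methyltransferase, was depleted in a human lung cancer cell line.

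RNA-seq was performed on NCI-H460 cells, a line that the series describes as lung adenocarcinoma and that is otherwise known as a large cell lung carcinoma line. The cells stably carried either a control shRNA (NC-shRNA, 3 libraries) or an shRNA against PRMT5 (PRMT5-shRNA, 3 libraries), delivered by lentivirus. The labels describe the control as directed against GFP, and the study's methods call it a control shRNA without naming a target. The knockdown cells were selected with puromycin as a stable population, the selection of the control cells is not given in the sources used here, and the labels name no other treatment. The study calls the 3 libraries of each group biological replicates, and p-values set the difference between groups against the spread between them. Whether these libraries came from separate infections is not given in the sources used here, so spread between infections may not be covered. A single PRMT5 hairpin group was sequenced, so an effect of the hairpin on other transcripts and an effect of PRMT5 loss cannot be told apart, and which of the designed hairpins was used in these libraries is not given in the sources used here.

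Total counts ranged from 53531257 to 70518401 per library. CPM is used below for counts scaled to a common library size by the TMM method and given as parts per 1000000, and FPKM for the deposited values that also take gene length into account, which are used where levels of different genes are compared, apart from a cut on CPM at the level of POLE2 that is named where it is used. Of 6 markers of carcinoma and lung epithelium, the keratins KRT7, KRT8, KRT18 and KRT19 measured 33.7 to 164 FPKM in every library, whereas EPCAM (0.32 to 0.52 FPKM) and CDH1 (0.10 to 0.30 FPKM) were near 0. The sum of the 6 was 344 to 361 FPKM in the controls and 318 to 329 FPKM after knockdown, and KRT8 was lower without overlap (log2 fold change -0.23, unadjusted p = 0.00826, edgeR adjusted p = 0.251). The adenocarcinoma and alveolar markers NKX2-1, NAPSA, SFTPB and SFTPC were near 0 as well, with a sum of at most 0.23 FPKM. Endothelial markers summed to 1.47 to 1.63 FPKM in the controls and to 2.06 to 2.66 FPKM after knockdown, where 4 of 5 tested (CDH5, PECAM1, KDR and VWF) were higher at an unadjusted p under 0.05. VWF had 0 counts in each control and 128, 105 and 122 counts after knockdown (at most 0.20 FPKM, edgeR adjusted p = 0.0341), and PECAM1 and VWF also had a DESeq2 adjusted p under 0.05. Fibroblast markers summed to 8.97 to 10.01 against 7.93 to 9.78 FPKM, with COL1A2 and PDGFRA at 0 throughout, and blood markers to 1.2 to 1.55 against 1.39 to 1.85 FPKM, with CD3E at 0. What part these markers have in the values below was not tested.

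Replication of the genome starts at origins, where the origin recognition complex, CDC6 and CDT1 load the MCM helicase in G1, a step called licensing. CDC45 and the GINS complex then turn the loaded helicase on, primase and DNA polymerase alpha lay down primers, and polymerases delta and epsilon extend them while held on the template by the PCNA ring. Many of these genes are transcribed in late G1 and S phase under E2F factors, and their transcripts are abundant in proliferating tumour cells.

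The knockdown was present in each library. PRMT5 stood at 143, 127 and 128 CPM in the NC-shRNA libraries and at 45.8, 45.6 and 38.3 CPM in the PRMT5-shRNA libraries. This was 32.6% of the control level (log2 fold change -1.62, standard error 0.0943, edgeR quasi-likelihood test with Benjamini-Hochberg adjustment over all genes, adjusted p = 0.0063).

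Because E2F factors are the known regulators of this gene class, the promoters were searched for the E2F core letters TTTGGCGC or TTTCGCGC on either strand, where the letters of one strand may overlap those of the other. Promoters were RefSeq windows of GRCh38.p14 from 250 bases before to 50 after a transcription start, and 39 of the 45 genes were matched. MCM4, MCM5, GINS4, POLD3, RPA2 and RPA3 had no entry. The following stretches are shown with the matching letters in capitals and are written 5′ to 3′ along the gene's strand. ORC1, GINS1 and RRM2 are the only matched genes lower in PRMT5-shRNA cells at an unadjusted p under 0.05 in which these or shorter letters were found. MCM2, MCM6 and UHRF1 are examples among the genes that held the letters and were not lower at that threshold. For ORC1 and RRM2, only the shorter letters TTGGCGC or TTCGCGC were found.
ORC1 (chr1:52404426-52404455, minus strand): gccacgccgaTTGGCGCGAAgttttctttt
GINS1 (chr20:25407667-25407696, plus strand): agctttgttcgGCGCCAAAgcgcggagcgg
RRM2 (chr2:10122365-10122393, plus strand): ggggcccgcgcGCGCCAAggccgccgaga
MCM2 (chr3:127598404-127598433, plus strand): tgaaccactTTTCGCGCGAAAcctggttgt
MCM6 (chr2:135876513-135876542, minus strand): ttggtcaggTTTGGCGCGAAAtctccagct
UHRF1 (chr19:4909973-4910002, plus strand): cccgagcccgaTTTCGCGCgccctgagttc

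These letters were common in the set. They occurred in the promoters of 12 of the 39 matched genes (30.8%), against 1.4% of the 27305 genes with a RefSeq promoter, and in 1.15% of all 35116 promoter windows. With the letters 1 base shorter, 19 genes matched (48.7%), against 6.1% of genes and 5.06% of windows. Genes with and without the letters were found among those that were lower and among those that were not. Of the 9 matched genes that were lower at an unadjusted p under 0.05, 1 held the longer letters, as did 11 of the other 30. The letters 1 base shorter were held by 3 of the 9 and by 16 of the other 30. The median log2 fold change was -0.02 over the 12 genes with the longer letters and -0.08 over the 27 without.

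Across the 45 genes, differences between the groups were small and leaned towards lower transcript in PRMT5-shRNA cells. In the edgeR fit on counts 33 genes had a log2 fold change below 0 and 12 above 0, a split that was 26 to 19 on FPKM. The median on counts was -0.10, compared with 0.01 over all 20295 genes tested and -0.02 over the 9101 genes expressed at least as highly as POLE2, the least abundant of the 45 in CPM. Of those 9101 genes, 54.5% were below 0, against 73.3% of the 45. None of the 45 passed an adjusted p of 0.05 by edgeR's quasi-likelihood test, the smallest adjusted p being 0.216, in a fit in which 14 genes (0.0690% of those tested) passed. At an unadjusted p under 0.05, 11 were lower (24.4%) and 0 higher, beside 6.29% lower and 6.54% higher over all genes tested and 10.3% lower over the genes expressed at least as highly as POLE2. DESeq2, which called 1.36% of genes lower at an adjusted p under 0.05, called ORC1 (adjusted p = 0.0398) and RRM2 (adjusted p = 0.0240), while edgeR's likelihood ratio test and limma on log2(FPKM + 1) called 0 of the 45.

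**Figure D1:**
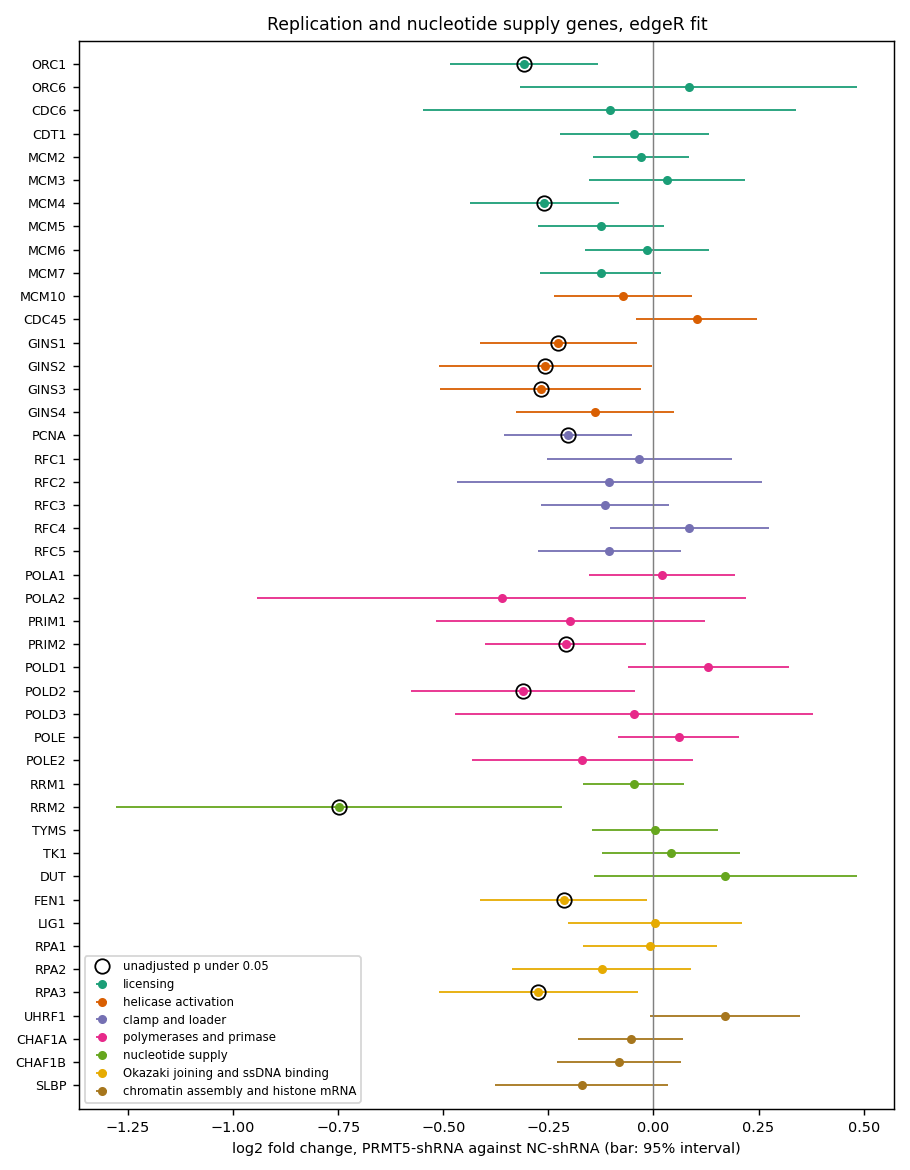
Log2 fold change of each of the 45 genes in PRMT5-shRNA against NC-shRNA cells from the edgeR fit, with bars for the 95% interval, colours for the 7 roles and rings around the 11 genes with an unadjusted p under 0.05. Most points lie between -0.3 and 0.2, the ringed points all lie below 0, and RRM2 at -0.75 stands far to the left with a wide bar.

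Libraries of the groups were apart in some genes and overlapped in most. In 15 genes (33.3%) all 3 PRMT5-shRNA libraries were below all 3 NC-shRNA libraries in CPM, in 2 (CDC45 and UHRF1) all were above, and in 28 the groups overlapped. Over all genes tested the corresponding shares were 10.7% and 11.0%, and 16.1% of the genes expressed at least as highly as POLE2 were below without overlap. Summed over the 45 genes, CPM was 5245, 5183 and 4913 in NC-shRNA and 4786, 4868 and 4618 in PRMT5-shRNA libraries. NC-shRNA library 3 was the lowest of its group in 25 of the 45 genes and PRMT5-shRNA library 3 the lowest of its group in 24, and their median log2 levels relative to the control mean were -0.04 and -0.13. Leaving out NC-shRNA library 1, 2 or 3 changed the 11 genes to 4, 6 or 13, and leaving out PRMT5-shRNA library 1, 2 or 3 changed them to 6, 5 or 3. The share of all genes that were lower at this threshold moved as well, from 6.29% with every library. It was 4.49%, 4.72% or 6.71% without an NC-shRNA library and 5.13%, 5.15% or 4.51% without a PRMT5-shRNA library, in the same order. ORC1, MCM4 and RRM2 stayed under an unadjusted p of 0.05 in each of these fits, and the median of the 45 moved to -0.06 without PRMT5-shRNA library 3.

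**Figure D2:**
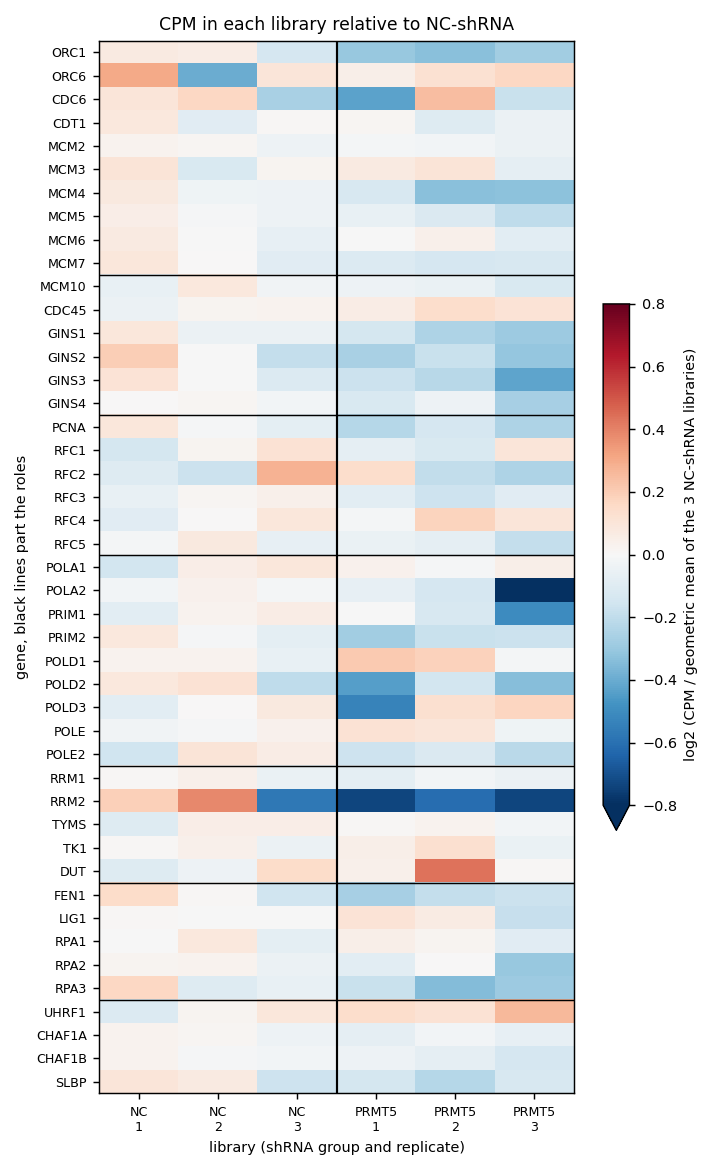
CPM of each gene in each of the 6 libraries, as log2 of the ratio to the geometric mean of the 3 NC-shRNA libraries (red higher, blue lower, colour scale cut at -0.8), with rows ordered by role. Blue prevails in the PRMT5-shRNA columns, most in library 3, RRM2 is blue in NC-shRNA library 3 as well, and POLA2 reaches beyond the scale in PRMT5-shRNA library 3 alone.

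The size of the shift differed between the units, and FPKM was used as deposited, without the TMM scaling. Log2 ratios of the group means in FPKM lay above the count values by similar amounts, in the targeted gene too. PRMT5 was at -1.56 in FPKM and -1.62 on counts, ORC1 at -0.25 and -0.31, and RRM1 at 0.01 and -0.05. On deposited FPKM the limma fit gave a median log2 fold change of -0.04 for the 45, beside 0.04 over all genes in that fit. On that scale 5 genes were lower at an unadjusted p under 0.05 (GINS1, MCM4, ORC1, PCNA and RRM2) and 3 higher (CDC45, POLD1 and UHRF1), beside 5.17% lower and 10.5% higher over all genes in that fit. The groups were apart downwards in 8 genes and upwards in 4, beside 6.59% and 14.7% of all genes tested. The summed FPKM of 1145, 1145 and 1121 overlapped the 1108, 1123 and 1079 of PRMT5-shRNA libraries. Transcript length also moved with the fold change. The genes expressed at least as highly as POLE2 were split by the length of the longest transcript into 4 bins of equal size. From short to long, the median log2 fold changes of these bins were -0.10, -0.03, 0.001 and 0.06. The 45 genes were distributed as 18, 16, 10 and 1 over these bins from short to long, and their medians were -0.12, -0.09, -0.05 and 0.06. With a correction for length, chosen after the data were seen, 12 genes were lower at an unadjusted p under 0.05, beside 7.49% of all genes in that fit. Among them were all 11 from the fit without it, and the median was -0.10. The correction followed the trend over all genes in that fit, not that of the genes expressed at least as highly as POLE2. It moved PCNA from -0.20 to -0.16 and ORC1 from -0.31 to -0.32. How much of the trend among the more highly expressed genes it removed was not tested.

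**Figure D3:**
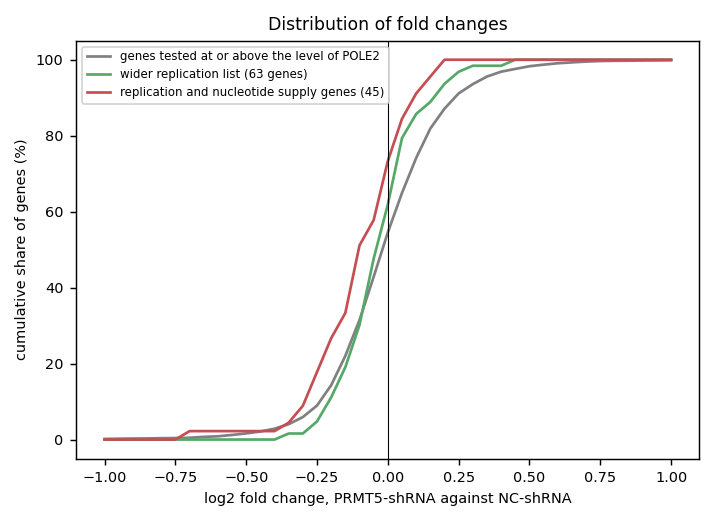
Cumulative share of genes (%) by log2 fold change for the 45 genes, for a wider list of 63 replication genes and for all genes expressed at least as highly as POLE2, with a vertical line at 0. At 0 the curves stand at 73.3% for the 45 genes, 61.9% for the wider list and 54.5% for the comparison genes.

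Of the 10 licensing genes, 8 had fold changes below 0, 4 (ORC1, MCM4, MCM5 and MCM7) were below control without overlap, and 2 (ORC1 and MCM4) were lower at an unadjusted p under 0.05, beside 16.1% and 10.3% of the genes expressed at least as highly as POLE2. ORC1, the largest subunit of the origin recognition complex and its cell cycle regulated ATPase, lies on chromosome 1 (52372829 to 52404459, minus strand, GRCh38). It measured 80.6, 79.6 and 69.9 CPM in NC-shRNA and 62.1, 60.6 and 63.2 CPM in PRMT5-shRNA libraries. The groups did not overlap, and the level was 80.8% of control (log2 fold change -0.31, standard error 0.0744, unadjusted p = 0.00448, edgeR adjusted p = 0.216). MCM4, a subunit of the MCM2 to MCM7 ring, measured 332, 309 and 306 against 289, 250 and 252 CPM, again without overlap. Its level was 83.5% of control (log2 fold change -0.26, standard error 0.0749, unadjusted p = 0.0106, edgeR adjusted p = 0.270).

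The other MCM subunits spread from 91.7% to 102.3% of control and none had an unadjusted p under 0.05. MCM5 (108, 103 and 101 against 99.2, 95.7 and 89.9 CPM) and MCM7 (435, 408 and 382 against 378, 372 and 373 CPM) were below control in every library, with unadjusted p of 0.0874 and 0.0776 in the edgeR fit. MCM2 varied little in CPM, at 281, 279 and 269 against 273, 271 and 267. The 95% interval of its log2 fold change, -0.14 to 0.08, did not reach the value of ORC1. In FPKM its PRMT5-shRNA libraries all lay above the controls by little, at 48.85, 49.57 and 48.77 against 50.63, 49.92 and 49.82. On counts, MCM3 and MCM6 had log2 fold changes of 0.03 and -0.02. Differences between the subunits of the ring were not tested.

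Of the loaders, CDT1 measured 51.9, 45.8 and 49.2 against 49.3, 45.5 and 47.4 CPM, and the groups overlapped. CDC6, the ATPase that works with ORC at the origin, was uneven within both groups, at 96.5, 101 and 75.3 against 67.1, 107 and 79.6 CPM. ORC6 varied among controls instead, at 49.6, 30.4 and 42.8 CPM, beside 41.5, 43.7 and 45.03 CPM in PRMT5-shRNA libraries. For these last 2 genes the 95% intervals, -0.55 to 0.34 and -0.32 to 0.48, were too wide to show a difference of the size of that in ORC1.

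Among the 6 helicase activators, 3 were lower at an unadjusted p under 0.05, all of them GINS genes, beside 6.29% of all genes and 10.3% of those expressed at least as highly as POLE2. GINS is a tetramer that joins CDC45 and the MCM ring into the active helicase, and its 4 genes all had fold changes below 0. GINS1 (chromosome 20, 25407727 to 25452628, plus strand) measured 44.0, 40.0 and 40.1 CPM in NC-shRNA and 37.5, 34.8 and 33.8 CPM in PRMT5-shRNA libraries, with no overlap, at 85.5% of control (log2 fold change -0.23, standard error 0.0789, unadjusted p = 0.0242, edgeR adjusted p = 0.318). GINS3 measured 35.4, 32.7 and 30.4 against 29.1, 28.1 and 24.5 CPM, also apart, at 83.0% of control (log2 fold change -0.27, standard error 0.101, unadjusted p = 0.0324, edgeR adjusted p = 0.342). For GINS2 the groups touched: 64.8, 56.3 and 49.5 CPM in NC-shRNA and 47.2, 50.01 and 45.6 CPM in PRMT5-shRNA libraries (log2 fold change -0.26, standard error 0.107, unadjusted p = 0.0473, edgeR adjusted p = 0.383). GINS4 stood at 42.8, 43.2 and 42.1 against 39.3, 41.5 and 35.5 CPM, which was 90.8% of control with an unadjusted p of 0.122 in the edgeR fit.

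CDC45, the partner of GINS in the same helicase, had a value above 0. It measured 55.7, 58.4 and 58.7 CPM in NC-shRNA and 60.0, 63.4 and 62.2 CPM in PRMT5-shRNA libraries, above control in every library by a small margin (107.4% of control, 95% interval of the log2 fold change -0.04 to 0.25, edgeR adjusted p = 0.523). MCM10, which helps the activated helicase leave the origin, was at 95.1% of control, and its groups overlapped.

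PCNA, the sliding clamp, was the most abundant of the 45 in deposited FPKM (134 ± 4.74 FPKM in NC-shRNA, SD, n = 3). The gene lies on chromosome 20 (5114953 to 5126626, minus strand), and it measured 239, 223 and 214 against 192, 205 and 190 CPM. Every PRMT5-shRNA library was below every control, and the level was 86.9% of control (log2 fold change -0.20, standard error 0.0641, unadjusted p = 0.0162, edgeR adjusted p = 0.295). The clamp loader RFC, a pentamer that opens the ring, had no subunit with an unadjusted p under 0.05. RFC3 was below control in every library (53.7, 56.8 and 57.8 against 52.8, 49.9 and 52.6 CPM, 92.3% of control, unadjusted p = 0.116 in the edgeR fit), whereas RFC1, RFC2, RFC4 and RFC5 overlapped between the groups, at 97.7%, 93.0%, 106.1% and 93.0% of control. RFC2 was uneven within both groups, at 57.6, 54.8 and 74.9 CPM in NC-shRNA and 68.1, 53.9 and 52.2 CPM in PRMT5-shRNA libraries.

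**Figure D4:**
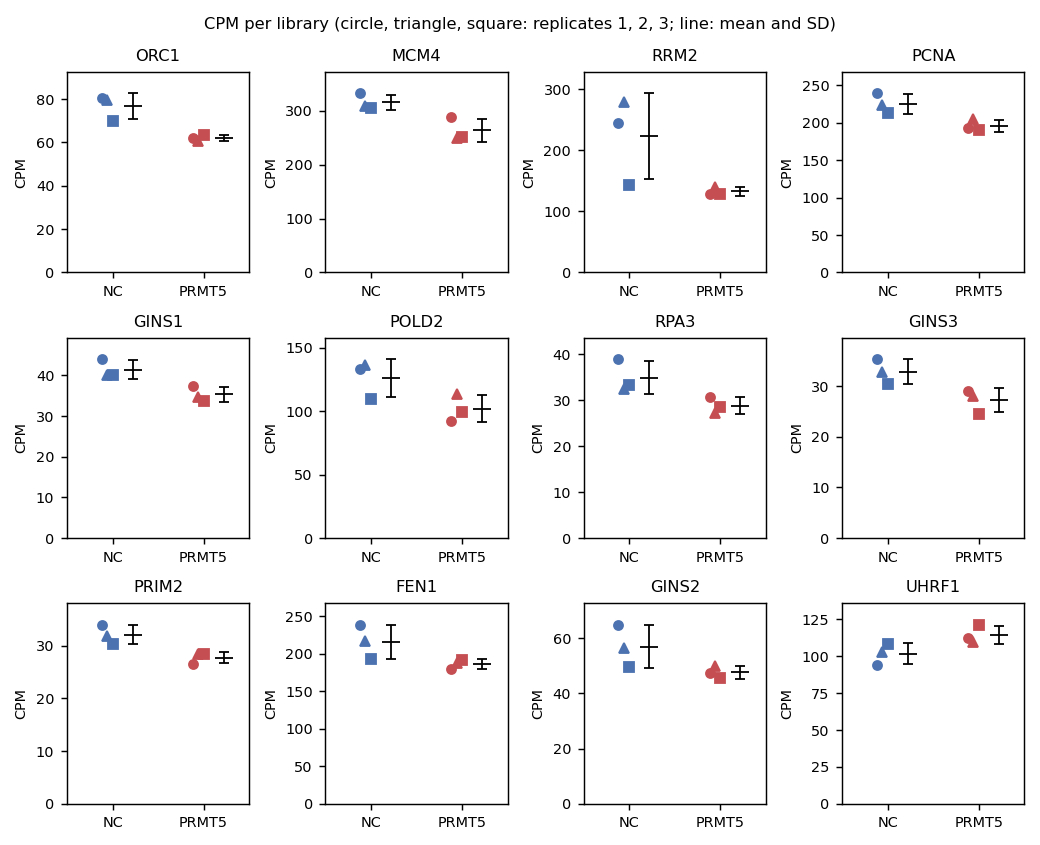
CPM in each library (circle, triangle and square for replicates 1, 2 and 3) of the 11 genes with an unadjusted p under 0.05 and of UHRF1, with the mean and SD of each group beside the points and axes starting at 0. The groups are apart in 9 of the 11 and touch in GINS2 and POLD2, and in RRM2 NC-shRNA library 3 lies next to the PRMT5-shRNA values, well below the other controls.

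Subunits of the same polymerase had values on either side of control, a difference that was not tested. POLD2, the accessory subunit of polymerase delta, lies on chromosome 7 (44114681 to 44124358, minus strand) and measured 134, 136 and 109 CPM in NC-shRNA and 92.5, 114 and 99.5 CPM in PRMT5-shRNA libraries. The groups overlapped through NC-shRNA library 3 and PRMT5-shRNA library 2, and the level was 80.7% of control (log2 fold change -0.31, standard error 0.112, unadjusted p = 0.0284, edgeR adjusted p = 0.329). POLD1, the catalytic subunit of the same polymerase, had a log2 fold change of 0.13 with a 95% interval of -0.06 to 0.32. POLD3 was level except for PRMT5-shRNA library 1, at 63.7, 67.7 and 71.1 against 46.6, 73.5 and 75.9 CPM.

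Primase makes the RNA primers and travels with polymerase alpha. Its large subunit PRIM2 (chromosome 6, 57314805 to 57646849, plus strand) measured 34.0, 31.8 and 30.3 against 26.4, 28.3 and 28.4 CPM, with no overlap, at 86.5% of control (log2 fold change -0.21, standard error 0.0809, unadjusted p = 0.0365, edgeR adjusted p = 0.356). The catalytic subunit PRIM1 measured 29.6, 32.0 and 32.7 against 31.4, 28.7 and 22.2 CPM. POLA2, the second subunit of polymerase alpha, measured 79.9, 83.1 and 80.4 against 77.4, 73.8 and 38.2 CPM. In PRIM1 and POLA2 the lowest value belonged to PRMT5-shRNA library 3. Without that library the log2 fold change of POLA2 moved from -0.36 to -0.10 and that of PRIM1 from -0.20 to -0.07. Both genes share exons with another annotated gene on the same strand, NACA and AC117378.1 for PRIM1 and AP000944.2 for POLA2.

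Catalytic subunits of the other polymerases were close to control. POLA1 measured 157, 180 and 184 against 177, 172 and 179 CPM, and POLE, the leading-strand polymerase, 138, 139 and 144 against 152, 150 and 137 CPM. Both overlapped between the groups. POLE2 was the least abundant of the 45 in deposited FPKM as well, at 3.95 ± 0.448 FPKM in NC-shRNA (SD, n = 3). It was at 88.9% of control with an unadjusted p of 0.171 in the edgeR fit.

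RRM2 had the largest fold change of the 45 and was the only one past 1.5-fold with an unadjusted p under 0.05. In either direction, 775 of the 20295 genes tested met both cuts, as did 107 of the 9101 expressed at least as highly as POLE2. Ribonucleotide reductase turns ribonucleotides into deoxyribonucleotides, and RRM2 is its small, radical-bearing subunit, whose level limits the enzyme in S phase. The gene lies on chromosome 2 (10120698 to 10131419, plus strand) and shares exons with AC007240.1 on the same strand. It measured 245, 280 and 144 CPM in NC-shRNA and 129, 140 and 129 CPM in PRMT5-shRNA libraries. The PRMT5-shRNA libraries were tightly grouped and all below the controls, but NC-shRNA library 3 exceeded the highest of them by little. The level was 59.6% of control (log2 fold change -0.75, 95% interval -1.28 to -0.22, standard error 0.224, unadjusted p = 0.0125, edgeR adjusted p = 0.282). Without NC-shRNA library 3 the log2 fold change was -0.98 and the edgeR adjusted p 0.0311, so the call by that test rested on whether this control was kept. Over all alternatives the log2 fold change ranged from -0.98 to -0.55 and the adjusted p from 0.0240 to 0.521.

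RRM1, the large subunit of the same enzyme, was nearly level at 320, 326 and 306 against 301, 313 and 308 CPM, with a 95% interval of the log2 fold change from -0.17 to 0.07. The CPM ratio of RRM2 to RRM1 was 0.767, 0.858 and 0.471 in NC-shRNA and 0.428, 0.449 and 0.419 in PRMT5-shRNA libraries, which did not overlap. No other gene of nucleotide supply had an unadjusted p under 0.05. TYMS, which makes dTMP and is the target of fluoropyrimidines, measured 115, 128 and 128 against 125, 126 and 121 CPM, and the interval of its log2 fold change, -0.15 to 0.15, was narrow. TK1, the S phase thymidine kinase, had a log2 fold change of 0.04. DUT, which removes dUTP, measured 45.1, 47.1 and 53.6 against 49.9, 65.4 and 48.8 CPM, its mean in PRMT5-shRNA cells being carried by library 2.

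Okazaki fragments are trimmed by the flap nuclease FEN1 and sealed by DNA ligase I (LIG1). FEN1 (chromosome 11, 61792637 to 61797244, plus strand, with exons overlapping FADS2 on its strand and TMEM258 on the other) measured 239, 217 and 193 CPM in NC-shRNA and 179, 188 and 191 CPM in PRMT5-shRNA libraries. The groups were separated by a small gap, and the level was 86.2% of control (log2 fold change -0.21, standard error 0.0842, unadjusted p = 0.0390, edgeR adjusted p = 0.364). LIG1 measured 59.5, 59.1 and 59.0 against 63.9, 61.9 and 52.2 CPM, and the 95% interval of its log2 fold change was -0.20 to 0.21.

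The 3 subunits of RPA, the complex that coats single-stranded DNA at forks, ranged from 82.7% to 99.5% of control. RPA3, the smallest subunit (chromosome 7, 7636518 to 7718607, minus strand), measured 38.9, 32.4 and 33.3 against 30.8, 27.3 and 28.4 CPM, with no overlap (log2 fold change -0.27, standard error 0.0998, unadjusted p = 0.0288, edgeR adjusted p = 0.331). RPA2 stood at 91.8% of control and RPA1 highest, both with overlap, and the interval of RPA1 ran from -0.17 to 0.15 on the log2 scale. RPA3 overlaps UMAD1 on the other strand, and how strand was treated in counting is not given in the sources used here.

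In chromatin assembly and histone mRNA, no gene had an unadjusted p under 0.05. UHRF1, which reads hemimethylated DNA behind the fork and brings in the maintenance methyltransferase, came nearest. It lies on chromosome 19 (4903080 to 4962154, plus strand) and measured 94.1, 103 and 108 CPM in NC-shRNA and 112, 110 and 121 CPM in PRMT5-shRNA libraries. All PRMT5-shRNA libraries were above all controls, at 112.5% of control (log2 fold change 0.17, standard error 0.0750, unadjusted p = 0.0584, edgeR adjusted p = 0.406). The CAF-1 subunits CHAF1A and CHAF1B, which place new histones on copied DNA, were at 96.3% and 94.4% of control, and SLBP, which binds the end of histone mRNAs, at 88.8% with an unadjusted p of 0.0906 in the edgeR fit.

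In deposited FPKM, levels differed widely between the genes. The length by which these values were divided is not given in the sources used here, so the order below holds for that unit. In NC-shRNA cells 32 of the 45 had a mean of at least 10 FPKM, and the median was 16.4 FPKM. After PCNA, the next were FEN1 (82.3 ± 6.84 FPKM), MCM7 (77.9 ± 3.35 FPKM) and MCM3 (75.2 ± 5.41 FPKM, all SD, n = 3). Differences among these 3 were not tested. The lowest were POLE2, GINS3 (5.38 ± 0.280 FPKM) and PRIM2 (5.74 ± 0.201 FPKM). Transcripts of the MCM ring, whose subunits are present in equal number in the protein, ranged from 11.9 ± 0.154 FPKM for MCM5 to those of MCM7. RRM1 had 62.8 ± 1.60 FPKM and RRM2 20.3 ± 6.23 FPKM. Their mean CPM in NC-shRNA were closer, at 317 and 223, with longest transcripts of 3166 and 3673 bases.

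**Figure D5:**
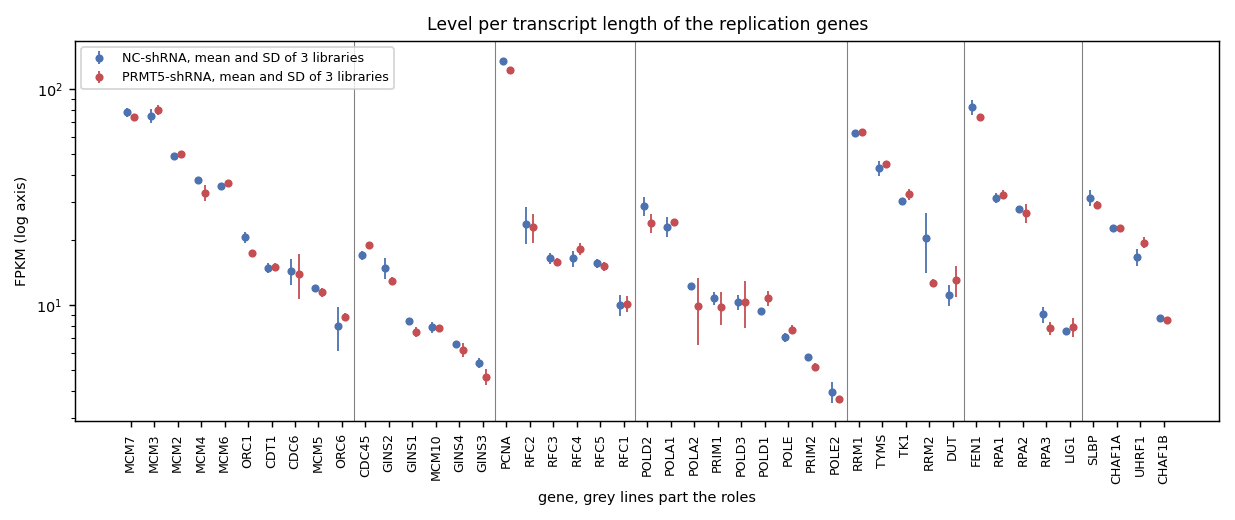
Mean FPKM on a log axis with SD of 3 libraries for each of the 45 genes in NC-shRNA (blue) and PRMT5-shRNA (red) cells, grouped by role and ordered by the NC-shRNA level. The spacing between genes, from 134 FPKM for PCNA to 3.95 FPKM for POLE2 in NC-shRNA, is far wider than the spacing between the groups, which is widest for RRM2.

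Spread between libraries set what could be seen. The median coefficient of variation of the 45 genes was 5.72% in NC-shRNA and 5.03% in PRMT5-shRNA libraries, below the 7.42% and 6.47% of the genes expressed at least as highly as POLE2, and the median standard error of the log2 fold change was 0.0789. For 37 of the 45 the 95% interval lay between -0.5 and 0.5 on the log2 scale (1.41-fold either way), and for 43 it lay within 1.5-fold. POLA2 and RRM2 had intervals that reached past 1.5-fold.

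The wider replication list of 63 genes, all tested, was used to see how other genes of the pathway behaved. Of these, 39 were below 0 and 24 above, and the median log2 fold change was -0.04. At an unadjusted p under 0.05, 7 were lower (11.1%) and 1 higher, and 12 were below control without overlap (19.0%). These shares were close to the 10.3% and 16.1% of the genes expressed at least as highly as POLE2, and over all genes tested they were 6.29% lower, 6.54% higher and 10.7% below without overlap. By edgeR's quasi-likelihood test 0 had an adjusted p under 0.05, and DESeq2 called DONSON lower (adjusted p = 0.0435). DONSON, a replisome factor needed to bring GINS to the helicase, measured 43.0, 40.2 and 38.1 CPM in NC-shRNA and 29.1, 34.6 and 30.4 CPM in PRMT5-shRNA libraries. The groups did not overlap, and the level was 77.6% of control (log2 fold change -0.37, standard error 0.0942, unadjusted p = 0.00612, edgeR adjusted p = 0.233). ORC2 of the origin recognition complex measured 57.1, 54.6 and 58.9 against 49.0, 52.2 and 48.1 CPM, at 87.5% of control. The origin firing factor TICRR measured 66.6, 86.4 and 79.2 against 66.1, 65.1 and 60.3 CPM, at 82.5%. In both the groups were apart, in TICRR by little.

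Of fork and nucleotide genes, the nuclease EXO1 measured 179, 194 and 187 against 172, 165 and 169 CPM, at 90.3% of control. PCLAF, which binds PCNA, measured 79.6, 81.5 and 80.7 against 75.3, 65.4 and 69.2 CPM, at 86.8%. The groups did not overlap in either. UMPS of pyrimidine synthesis measured 90.3, 87.5 and 80.3 against 76.9, 79.6 and 65.6 CPM, at 86.0%. The nucleoside diphosphate kinase NME1 measured 340, 278 and 304 against 260, 266 and 248 CPM, at 84.0%. Both were below control in every library, while the mitochondrial thymidine kinase TK2 was above it. TK2 measured 15.8, 15.3 and 18.8 against 21.6, 20.1 and 19.4 CPM, at 122.5%. For these 7 genes the edgeR adjusted p ran from 0.301 for NME1 to 0.388 for UMPS.

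Of 13 E2F and RB family genes, the transcription factors and pocket proteins that time the expression of this class, 0 were lower and 2 higher at an unadjusted p under 0.05, beside 6.29% lower and 6.54% higher over all genes, and 0 had an adjusted p under 0.05 with either edgeR or DESeq2. E2F8, a repressive member, measured 14.4, 15.7 and 16.1 against 18.6, 17.6 and 18.8 CPM (log2 fold change 0.25, unadjusted p = 0.0324, edgeR adjusted p = 0.342). E2F5, a member that works with RBL1 and RBL2, measured 11.5, 12.5 and 11.03 against 15.4, 13.3 and 16.1 CPM (log2 fold change 0.35, unadjusted p = 0.0196, edgeR adjusted p = 0.303). In both genes the knockdown libraries all lay above the controls. The median over the 13 was -0.02. In bulk RNA, fewer cells in S phase and less transcript per cell cannot be told apart.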

How the data were processed

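RNA-seq of 3 NC-shRNA and 3 PRMT5-shRNA libraries of NCI-H460 cells was analysed, with groups and replicate numbers taken from the sample labels. The authors deposited estimated counts of each gene from StringTie, without normalization, and FPKM values. The submitters' processing notes name cutadapt 1.9, HISAT2 2.0.4, StringTie 1.3.4d and GRCh38, whereas the methods name a mouse assembly; 58552 of 58825 identifiers were found in GENCODE release 29 of GRCh38. Strand settings of the counting are not given in the sources used here, and 7 of the 45 genes share exons with another gene on the same strand and 14 on the other strand only. Low counts gathered at 4 (1214 to 1319 genes per library, against 283 to 546 at 3 or 5), so a count is not read as 1 fragment. Counts, already whole, were scaled by TMM, filtered with filterByExpr by group and tested by edgeR's quasi-likelihood test (edgeR 4.0.16, R 4.3.3) with Benjamini-Hochberg adjustment over 20295 genes. Standard errors came from the F statistic. DESeq2 1.42.0, limma 3.58.1 on log2(FPKM + 1) or log2(FPKM + 0.1) with a mean FPKM of at least 0.5, edgeR's likelihood ratio test, other scalings and filters, counts divided by 4, a block for the replicate number, and fits without 1 library at a time were alternatives, and the fits were tested on simulated data. The genes and lists were chosen with earlier results of these data known. Values per library are given for genes with an unadjusted p under 0.05 and for the smallest p of a role with none; other genes were named after their values were seen. An exact permutation test of 3 against 3 libraries cannot go below 0.10 and was not used for single genes. No library pair was a duplicate (smallest chi-square per degree of freedom 42.5).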

Additional observations from a re-analysis of the deposited data

How the results depend on the processing

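The 11 genes lower at an unadjusted p under 0.05 were below 0 in each of the 18 alternatives, of which ORC1, MCM4 and RRM2 kept an unadjusted p under 0.05 in all, and no value that was called changed sign. DESeq2 called 2 of the 45 lower at an adjusted p under 0.05, beside 1.36% of genes. The likelihood ratio test left 4 lower, and 2 lower and 0 higher in the wider list, beside 3.71% lower over all genes in that fit. On log2(FPKM + 1) there were 5 lower and 3 higher, on log2(FPKM + 0.1) 4 and 3, and without a filter 6 and 3, each with 2 lower and 2 higher in the wider list, and medians of -0.0401, -0.0414 and -0.0401. Over all genes 5.17%, 5.09% and 3.33% were lower in these fits, in that order. The FPKM counts without overlap were 8 lower and 4 higher, beside 6.59% and 14.7% of all genes tested. The shorter E2F letters were found in 19 genes. Leaving out 1 library gave 3 to 13 lower and 0 to 1 higher at an unadjusted p under 0.05, 0 to 1 lower at an adjusted p, 1 to 9 lower and 0 to 1 higher in the wider list, and a median of -0.105 to -0.0631. The lowest of the first count came without PRMT5-shRNA replicate 3 and the highest without NC-shRNA replicate 3. Over all genes 4.51% and 6.71% were lower in those fits at an unadjusted p under 0.05. The cause of these moves was not tested.

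No link between libraries of the same replicate number is stated in the labels. The deviations of same-numbered libraries had correlations of 0.00122, -0.0388 and 0.064 over 10500 genes. These values show no shared shift but cannot show whether such libraries were prepared together. With the replicate number as a block, 1 of the 45 was higher (UHRF1) and 9 lower, 4 genes of the wider list were lower and 0 higher, and PRMT5 at -1.62 had an edgeR adjusted p of 0.144. In that fit 5.81% of all genes were lower at an unadjusted p under 0.05. With 3 libraries a group, the median standard error was 0.0789 on the log2 scale, and differences well above it did not pass adjustment. ORC1, at -0.31 with a standard error of 0.0744, had an edgeR adjusted p of 0.216.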
